A study of Mus musculus with 5 samples.

Results

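The genes described here encode peroxiredoxins and other enzymes that remove superoxide and peroxides, measured in mouse germinal centre B cells with and without intact Rel alleles. They were taken by name from the array annotation, and 19 of the 45101 probe sets carried the symbol of 1 of the listed genes alone. These 19 probe sets cover 8 of the 10 listed genes, among 18193 genes with a probe set of their own, namely Prdx2, Prdx3, Sod1, Sod2, Txn1, Gpx1, Gpx4 and Cat. Of these genes, 6 had several probe sets and 2, Prdx3 and Gpx1, had 1. A further 5 probe sets are annotated to Prdx1 together with Gm21399, a Prdx1 pseudogene, so their signal cannot be assigned to Prdx1 alone and they are described apart. The expression of Prdx5 was not analysed here, but the bases before its start were searched with those of the other genes.

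Superoxide arises as a by-product of respiration and from NADPH oxidases, and superoxide dismutases convert it to hydrogen peroxide. Catalase, the peroxiredoxins and the glutathione peroxidases then reduce the peroxide, the peroxiredoxins with electrons from thioredoxin and the glutathione peroxidases with electrons from glutathione. Germinal centre B cells divide rapidly, and c-Rel, the product of Rel, is an NF-kB subunit with known roles in B cell proliferation.

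The REL group held 2 arrays of eGFP-positive germinal centre B cells from relfl/flCg1-Cre mice, which carry loxP-flanked Rel alleles and the Cg1-Cre transgene. The WT group held 3 arrays of eGFP-negative germinal centre B cells from littermates with Cg1-Cre alone. All mice had a C57BL/6 background, were 12 weeks old, and had received sheep red blood cells 7 days earlier, and the cells were sorted from the spleen. About 10 ng of total RNA from about 30000 cells was amplified for each array, so both groups share the Cre transgene, the immunization and the amplification. Genotype and eGFP state differ together between the groups, so a difference due to one cannot be told apart from a difference due to the other. Cg1-Cre is active in B cells that transcribe the gamma 1 constant region, and the labels state neither what eGFP reports, nor the deleted exons, nor whether each array was a separate animal. The p-values therefore cover only the variation among these 5 arrays, part of which may be technical.

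Rel was checked first, with 1 probe set. Its signal was 18.6 and 85.2 on the REL arrays, against 492, 134 and 206 on the WT arrays, so the REL signals were under all the WT signals. The log2 difference was −2.12 (SE 0.76), and limma gave an adjusted p of 0.532 over all probe sets tested. A probe set outside the deleted exons would not check the genotype. Pearson correlations of log2 signals over probe sets were 0.878 for the REL pair, 0.886 to 0.905 between REL and WT arrays, and 0.917 to 0.934 among WT arrays. RNA integrity, read as the Actb control signal at the 3′ end over that at the 5′ end, gave 1.64 and 1.73 in REL and 1.58 to 2.45 in WT. Summed signals of 11 germinal centre and B cell markers were 65630 and 71563 in REL and 65148 to 78973 in WT, and Cd79a, Ms4a1, Bcl6 and Mki67 were bright on all arrays with overlapping groups. Of this list, Rgs13 was at 4514 and 3321 in REL and 4960 to 6058 in WT, and Gcsam at 3368 and 2442 in REL and 3726 to 4298 in WT, both with REL under all WT arrays. Pax5 was dim, at 78.9 and 72.8 in REL and 71.4 to 209 in WT. The sums of 15 macrophage and monocyte markers were 6275 and 6361 in REL and 1317 to 1838 in WT. For 11 of the 15 the REL signals were over all the WT signals, against 10.5% of all probe sets tested. Of the others, Adgre1 lay lower in REL, and C1qa was below the level of dim probe sets (26.8) on every array. Markers of neutrophils summed to 413 and 111 in REL and 168 to 1344 in WT, of T cells to 864 and 290 in REL and 253 to 519 in WT, and of stroma and endothelium to 875 and 428 in REL and 245 to 399 in WT. Plasma cell markers summed to 17291 and 19118 in REL and 17813 to 20863 in WT, with Jchain the brightest. Among them, Sdc1 was at 42.6 and 42.4 in REL and 125 to 455 in WT, and Xbp1 at 2469 and 2805 in REL and 1708 to 1985 in WT. Among the T cell markers, Cd247 was at 630 and 168 in REL and 16.3 to 307 in WT, while Cd3d and Cd4 were below 26.8 on every array.

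Because Rel encodes an NF-kB subunit, the 250 bases before the annotated start of each gene were searched for the NF-kB consensus of 10 letters on both strands. The windows of Prdx3, the peroxiredoxin with the smallest p below, and of Sod2 and Cat, which hold a match, are shown 5′ to 3′ on the gene's strand, with the match in capitals. The sequences are from RefSeq, build GRCm38.p6: Prdx3 at chr19:60874539-60874788 on the minus strand, Sod2 at chr17:13007589-13007838 on the plus strand and Cat at chr2:103485154-103485403 on the minus strand.
Prdx3: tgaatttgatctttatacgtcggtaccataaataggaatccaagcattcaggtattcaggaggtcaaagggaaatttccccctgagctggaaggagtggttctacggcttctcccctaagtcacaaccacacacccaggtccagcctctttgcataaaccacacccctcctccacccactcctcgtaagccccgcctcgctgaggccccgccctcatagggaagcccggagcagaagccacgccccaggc
Sod2: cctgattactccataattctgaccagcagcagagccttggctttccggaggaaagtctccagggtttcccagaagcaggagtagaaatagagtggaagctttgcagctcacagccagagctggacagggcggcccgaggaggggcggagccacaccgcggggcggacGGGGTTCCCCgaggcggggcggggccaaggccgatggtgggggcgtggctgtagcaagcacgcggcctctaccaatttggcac
Cat: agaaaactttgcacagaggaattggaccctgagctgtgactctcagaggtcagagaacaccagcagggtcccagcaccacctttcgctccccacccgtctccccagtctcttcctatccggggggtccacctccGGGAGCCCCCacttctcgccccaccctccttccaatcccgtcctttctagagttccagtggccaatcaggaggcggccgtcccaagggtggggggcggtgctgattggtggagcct
All 10 listed genes matched an entry by symbol, with 13 windows between them, as some genes have several annotated starts. The NF-kB consensus lay in 4 of the 13 windows, those of Prdx1, Sod2, Gpx1 and Cat, against 7.25% of the 32851 windows of this length. No match of these letters lay in the Prdx3 window. The core of the antioxidant response element, TGACNNNGC, which NRF2 binds, lay in the windows of Prdx1 and Sod1 as GCTGAGTCA and GCGTGGTCA on the gene's strand. By window this was 2 of the 13, against 10.2% of all windows. The 2 motifs share no bases in these windows. A match is a description of the letters and not a measured binding site.

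No antioxidant probe set passed the test, and the 2 genes whose arrays separated the groups did so in opposite directions. The REL signals were over all the WT signals in 2 of the 17 antioxidant probe sets tested and under them all in 1. Of all probe sets tested, 10.5% lay over and 13.1% under. Prdx3, which encodes a mitochondrial peroxiredoxin, had a REL to WT ratio of 0.495, while Gpx4, the glutathione peroxidase that reduces lipid hydroperoxides in membranes, was 1.37-fold and 1.69-fold higher by its 2 probe sets, as fitted on the log2 scale given below. The bright probe sets of Sod1, Txn1, Gpx1 and Prdx2 and those shared by Prdx1 and Gm21399 lay 0.12 to 0.32 log2 units below WT, with overlapping arrays in all but 1 of the shared ones. The brighter Cat probe set was at −0.09, and the median over all probe sets tested was −0.05. Signals are MAS5 values on a linear scale, and differences are REL minus WT on the log2(signal + 16) scale. After the 40% of probe sets with the lowest mean were left out (below a signal of 26.8), 27022 probe sets were tested with limma, and 17 of the 19 antioxidant probe sets were among them. Of all those tested, 0 (0%) passed at an adjusted p under 0.05, while 1003 were higher (3.71%) and 1110 lower (4.11%) at an unadjusted p under 0.05. Of the 17 antioxidant probe sets 0 passed after adjustment, and 1, that of Prdx3, lay under 0.05 unadjusted. Differences in bulk samples cannot tell fewer cells of a type from less RNA per cell.

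**Figure D1:**
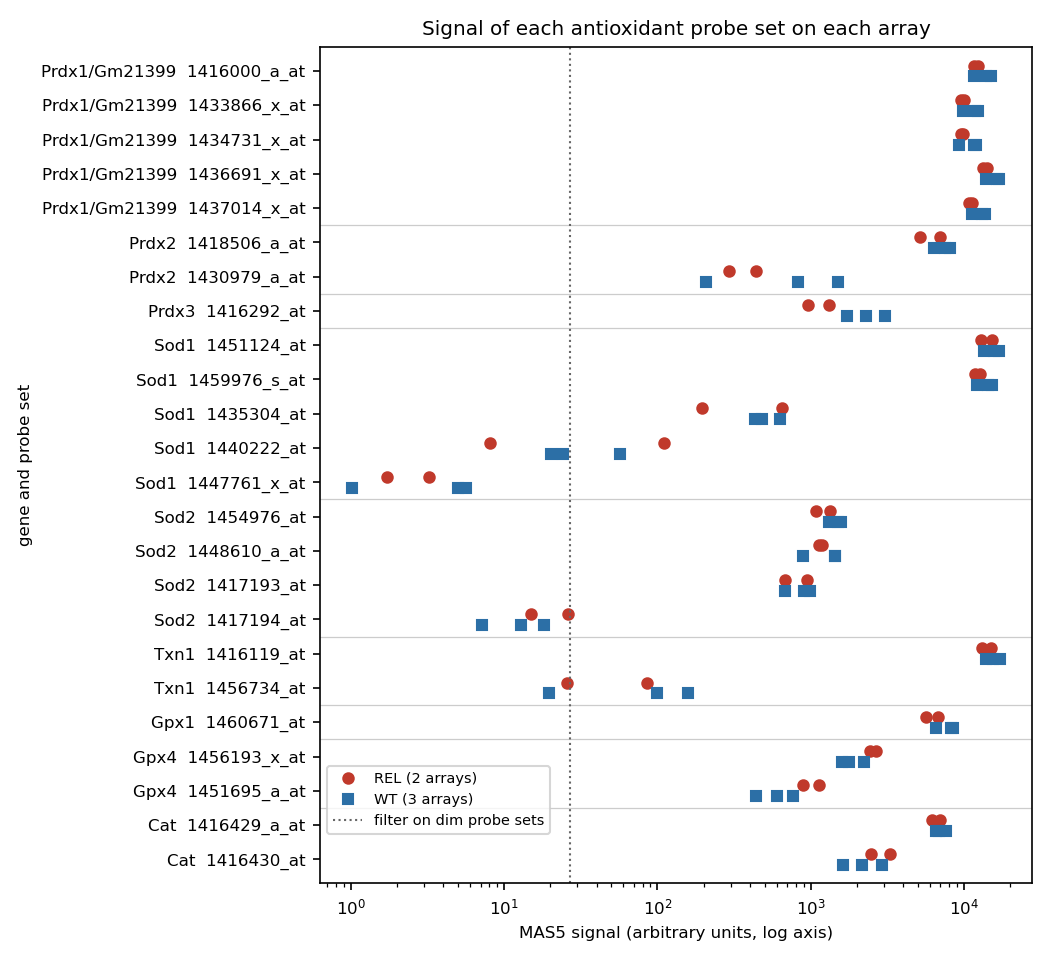
MAS5 signal (log axis) of each probe set of the antioxidant genes and of the 5 probe sets shared by Prdx1 and Gm21399, with circles for the 2 REL arrays and squares for the 3 WT arrays. For Prdx3 both REL arrays (1323 and 963) lie left of every WT array, and for Gpx4 both lie to the right on each of its 2 probe sets.

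The peroxiredoxins use a reactive cysteine to reduce peroxides. Prdx3 is a mitochondrial member of the family, and its probe set had signals of 1323 and 963 on the REL arrays and of 3054, 1732 and 2287 on the WT arrays. The groups did not overlap, and REL replicate 2 was the lowest and WT replicate 1 the highest of the arrays. The difference was −1.01 (SE 0.31, 95% interval −1.72 to −0.31), with a limma unadjusted p of 0.00993 and an adjusted p of 0.492. It was −0.79 without REL replicate 2 and −1.24 without REL replicate 1. Differences of −1 or lower were found for 7.8% of all probe sets tested, and REL signals under all WT signals for 13.1%.

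Prdx2, a cytosolic peroxiredoxin abundant in red blood cells, was measured by 2 probe sets. The brighter had signals of 5186 and 7022 in REL and of 6403, 8081 and 7529 in WT, and the dimmer 292 and 442 in REL and 823, 208 and 1496 in WT. The arrays overlapped for both, and WT replicate 2 held the highest signal of the brighter and the lowest of the dimmer probe set. The differences were −0.27 (95% interval −0.69 to 0.14) and −0.81 (−2.44 to 0.83), with limma adjusted p of 0.758 and 0.83. Without REL replicate 1 the brighter one was at −0.06 and without REL replicate 2 at −0.49. The dimmer one was at −1.58 without WT replicate 2 and −0.21 without WT replicate 3. The 8 measured erythroid and platelet markers summed to 320 and 111 in REL and to 336 to 599 in WT. REL lay under all WT arrays for 2 of them and over them for 1, against 13.1% and 10.5% of all probe sets tested. Those under were Hbb-b2, a beta-globin gene, at 82.1 and 35.5 in REL and 88.0 to 532 in WT, and Ppbp, a platelet chemokine gene, at 18.7 and 5.12 in REL and 20.9 to 97.0 in WT. The one over was Hba-a1, at 12.8 and 12.1 in REL and 1.22 to 5.92 in WT. Hba-a1, Alas2 and Klf1 were below the filter level on every array. The part of erythroid cells and platelets in the Prdx2 signal was not tested.

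Prdx1, the other main cytosolic peroxiredoxin, shares its 5 probe sets with Gm21399. The brightest of these had signals of 13328 and 14110 in REL and of 13999, 16541 and 16868 in WT. REL replicate 1 was the lowest array in 4 of the 5 and WT replicate 2 the highest in 4. The differences ran from −0.21 to −0.16, with 95% intervals whose lowest bound was −0.51 and highest 0.15, and limma adjusted p of 0.726 to 0.822. In 1 of the 5 the groups did not overlap, by 11219 in REL replicate 2 against 11263 in WT replicate 1. The 5 probe sets read the same transcripts and are not independent measurements.

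Sod1 encodes the copper-zinc superoxide dismutase of the cytosol. Its brightest probe set had signals of 12905 and 15358 in REL and of 13431, 16829 and 15761 in WT, and the next brightest 11804 and 12710 in REL and 12109, 15190 and 14362 in WT. REL replicate 1 was the lowest array in both, and REL replicate 2 fell between the WT arrays. The differences were −0.12 (95% interval −0.42 to 0.18) and −0.17 (−0.47 to 0.12), with limma adjusted p of 0.878 and 0.792. Of the dimmer Sod1 probe sets, 1 read 196 and 646 in REL and 431 to 628 in WT, and another 8.1 and 111 in REL and 20.1 to 56.7 in WT. On these the REL arrays were the lowest and the highest of all 5, with differences of −0.48 (SE 0.55) and 0.22 (SE 0.78). The dimmest was below the filter level on every array, at 1.02 to 5.62.

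Sod2, the manganese superoxide dismutase of the mitochondrial matrix and a known NF-kB target, was measured by 4 probe sets, of which 3 were tested. The brightest had signals of 1091 and 1346 in REL and of 1511, 1570 and 1321 in WT. The second had 1131 and 1187 in REL and 1451, 897 and 1446 in WT, and the next 679 and 951 in REL and 990, 680 and 908 in WT. The arrays overlapped in all 3, and the differences were −0.27 (95% interval −0.90 to 0.36), −0.09 (−0.83 to 0.65) and −0.08 (−0.89 to 0.73), with limma adjusted p of 0.861 to 0.979. The dimmest read 26.1 and 14.9 in REL and 7.19 to 18.2 in WT, below the filter level. The difference of Prdx3, also a mitochondrial enzyme, was not tested against that of Sod2.

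Txn1 encodes cytosolic thioredoxin, which passes electrons to the peroxiredoxins. Its bright probe set had signals of 13156 and 14925 in REL and of 13897, 17109 and 15389 in WT, with a difference of −0.14 (95% interval −0.42 to 0.14, limma adjusted p = 0.833). The dim one read 85.3 and 25.8 in REL and 19.5, 158 and 99.2 in WT, and its difference of −0.46 (SE 0.81) turned to 0.18 without REL replicate 2. Neither separated the groups.

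Gpx1 and Gpx4 encode selenoproteins, and these 2 glutathione peroxidase genes stood on opposite sides of 0. Gpx1, the abundant cytosolic form, had signals of 5676 and 6739 in REL and of 6580, 8188 and 8482 in WT. REL replicate 2 lay just above WT replicate 1, and the difference was −0.32 (SE 0.17, 95% interval −0.70 to 0.06, limma adjusted p = 0.7). Gpx4, which protects membranes from lipid peroxidation, had signals of 2425 and 2651 in REL and of 1601, 2219 and 1780 in WT on its brighter probe set. On the other it had 1132 and 887 in REL and 604, 761 and 438 in WT. On both, the REL signals were over all the WT signals, a separation that 10.5% of all probe sets tested showed. The differences were 0.45 (SE 0.25, 95% interval −0.11 to 1.01) and 0.76 (SE 0.39, −0.11 to 1.63), with limma adjusted p of 0.707 and 0.685. Most of the macrophage and monocyte markers given above lay higher on the same 2 arrays, and their part in the Gpx4 signal was not tested.

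Cat encodes catalase, the peroxisomal enzyme that splits hydrogen peroxide, and its 2 probe sets differed in direction. The brighter had signals of 7018 and 6199 in REL and of 6618, 6830 and 7667 in WT, and the other 3280 and 2476 in REL and 2147, 2904 and 1624 in WT. The arrays overlapped in both, and the differences were −0.09 (95% interval −0.43 to 0.25) and 0.39 (−0.26 to 1.05), with limma adjusted p of 0.929 and 0.792.

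**Figure D2:**
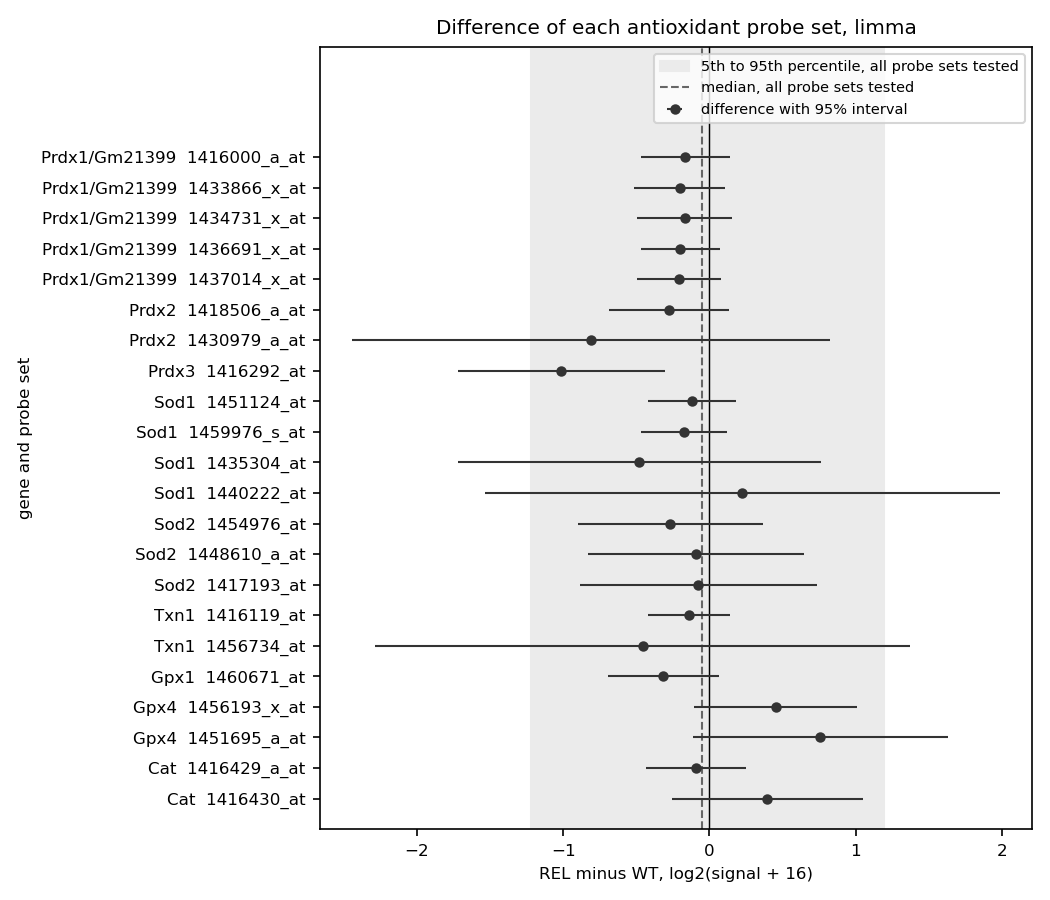
Difference between REL and WT on the log2(signal + 16) scale for each probe set tested, with the 95% interval of the limma fit. The grey band spans the 5th to 95th percentile of all 27022 probe sets (−1.22 to 1.19), and the interval of Prdx3 is the single one that does not include 0.

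Over the 17 antioxidant probe sets the median difference was −0.14, against −0.05 over all probe sets tested, and 13 of 17 lay below 0 (76.5%), against 54.2% of all. In 2 of the 17 the REL signals were over all the WT signals and in 1 under them all, against 10.5% and 13.1% of all. The probe sets of 1 gene share their target, and the 17 are not replicates. With the brightest probe set of each of the 8 genes, 7 lay below 0 and the median was −0.20. Array by array, the median deviation from the WT mean was −0.24 and −0.06 in REL replicates 1 and 2, and −0.15, 0.10 and 0.06 in WT replicates 1 to 3. REL replicate 2 fell between the WT arrays. Over all probe sets tested the median deviation was 0.02 and −0.12 in REL, and −0.02, −0.03 and 0.06 in WT. REL replicate 1 was the lowest array for 9 of the 17 antioxidant probe sets. Without it the median was −0.06, against −0.12 over all probe sets then tested, and without REL replicate 2 it was −0.24 against 0.02.

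REL replicate 1 was also the lowest array for the 3 control probe sets of Gapdh and for 1 of the 3 of Actb, that at its 3′ end. The other 2 Actb controls were lowest on WT replicate 3. Actb probe sets that are not controls were lowest on WT replicate 1 (16406) and on WT replicate 3 (13181). The 3 controls of 18S ribosomal RNA were each lowest on a WT array, the brightest at 11953 and 13417 in REL and 8696 to 9822 in WT. The 3′ control probe set of Gapdh, a glycolytic enzyme, had signals of 11437 and 14696 in REL and of 12399, 15928 and 15371 in WT, and that of Actb, which encodes beta-actin, had 12313 and 15192 in REL and 13637, 15093 and 13661 in WT. With quantile normalization the differences of the brightest Sod1 and Txn1 probe sets were −0.01 and −0.02, and those of Gpx1 and the brighter Prdx2 probe set −0.24 and −0.20, while Prdx3 stood at −1.06 and the Gpx4 probe sets at 0.44 and 0.70. Median centring moved Sod1 and Txn1 the other way, to −0.18 and −0.20. The median SD of the antioxidant probe sets between arrays was 0.24 log2 units in REL and 0.27 in WT, against 0.43 and 0.41 over all probe sets tested. Some probe sets varied more, and the SD reached 1.69 in REL for the dimmest Sod1 one tested. It was 0.90 in REL and 1.19 in WT for the dim Txn1 one. For the dimmer Prdx2 one, with a mean signal of 842 in WT, it reached 1.41 in WT.

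**Figure D3:**
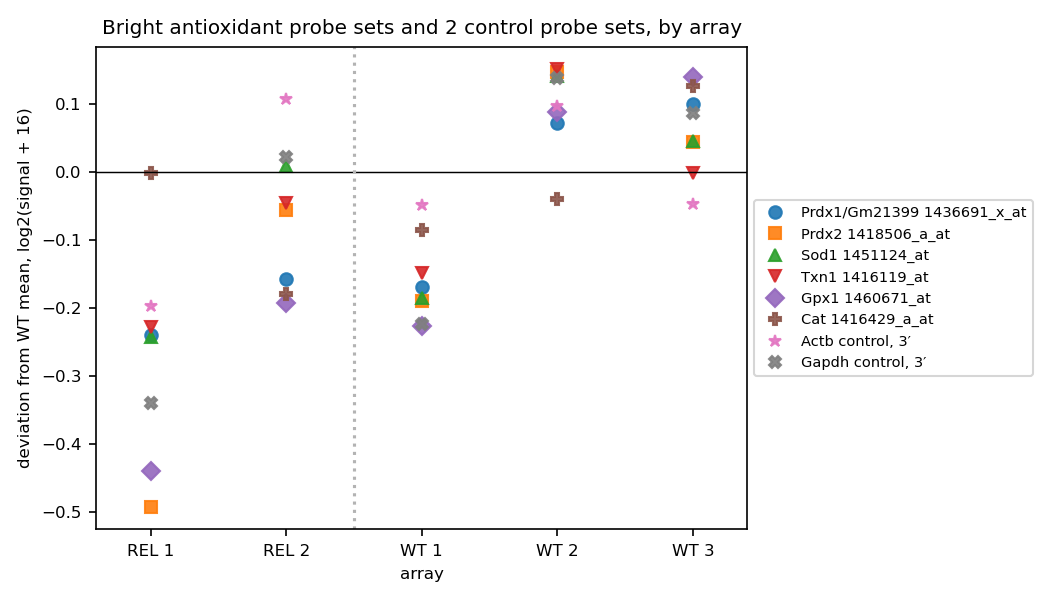
Deviation from the WT mean on the log2(signal + 16) scale for 6 bright antioxidant probe sets and the 3′ control probe sets of Actb and Gapdh, with 1 column of points for each REL and WT array. All points lie at or below 0 on REL replicate 1 and below 0 on WT replicate 1, and all but Cat lie above 0 on WT replicate 2.

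Other genes of the redox system were grouped by role, with the brightest probe set of each gene. Among 16 thioredoxin, glutaredoxin and related genes 11 lay below 0, against 54.2% of all probe sets tested, with a median of −0.23. The REL signals were under all the WT signals in 5 and over them in 1, against 13.1% and 10.5% of all. Glrx, which encodes the cytosolic glutaredoxin, had signals of 265 and 256 in REL and of 462, 660 and 552 in WT (−1.04, SE 0.43). Msra, a methionine sulfoxide reductase gene, had 639 and 957 in REL and 1106, 1244 and 1294 in WT (−0.62, SE 0.33), and −0.34 without REL replicate 1. Sesn3, a sestrin gene, had 1589 and 1885 in REL and 2657, 2071 and 2374 in WT (−0.44, SE 0.24), and its other probe set pointed the other way. Their limma adjusted p were 0.604, 0.694 and 0.708.

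The 17 tested genes of glutathione synthesis, recycling and transfer had a median of 0.10, with 11 above 0. The transferase gene Gstt1 had signals of 830 and 564 in REL and of 459, 321 and 246 in WT, so the groups did not overlap (1.01, SE 0.46, limma adjusted p = 0.653). Gstt2, a related transferase gene, was at 0.63 (SE 0.31) and Gstp1 at −0.20 (SE 0.15), with overlapping arrays. Leaving out 1 array at a time gave 0.26 to 0.99 for Gstt2 and −0.34 to −0.06 for Gstp1, with both ends set by the REL arrays. Slc7a11, the cystine transporter that feeds glutathione synthesis, was below the filter level on every array.

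Regulators and targets of NRF2, the transcription factor of the antioxidant response, and enzymes that supply NADPH had a median of 0.06 over 19 genes, with 9 below 0 and 10 above. Pgd, an NADPH-forming enzyme of the pentose phosphate pathway, had signals of 3449 and 3418 in REL and of 4459, 6231 and 7010 in WT (−0.75, SE 0.22, limma adjusted p = 0.463), and its probe sets that were tested all lay below 0. Hmox1, the haem oxygenase gene, had 172 and 245 in REL and 66, 56.5 and 62.6 in WT (1.51, SE 0.58, limma adjusted p = 0.561). It is strongly expressed in red pulp macrophages. Of the 15 macrophage and monocyte markers, 11 had REL signals over all the WT signals, while Adgre1 had them under. The part of such cells in the Hmox1 signal was not tested. Hmox2 was at −0.39 (SE 0.22). Among 8 genes of superoxide production and related enzymes the median was 0.03, with Cyba, the p22phox subunit of the NADPH oxidase, at −0.35 (SE 0.17), Xdh at −0.63 (SE 0.63) and Ncf1 at 0.21 (SE 0.24). The other 2 Ncf1 probe sets pointed the other way, and the brightest was at 0.04 without REL replicate 2. Leaving out 1 array at a time gave −1.07 to −0.36 for Xdh, which fell below the filter without WT replicate 2 or 3. In these 4 lists 0 genes passed in limma after adjustment, and 1 was higher and 2 lower at an unadjusted p under 0.05, with 60 genes tested, against 3.71% and 4.11% of all probe sets.

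**Figure D4:**
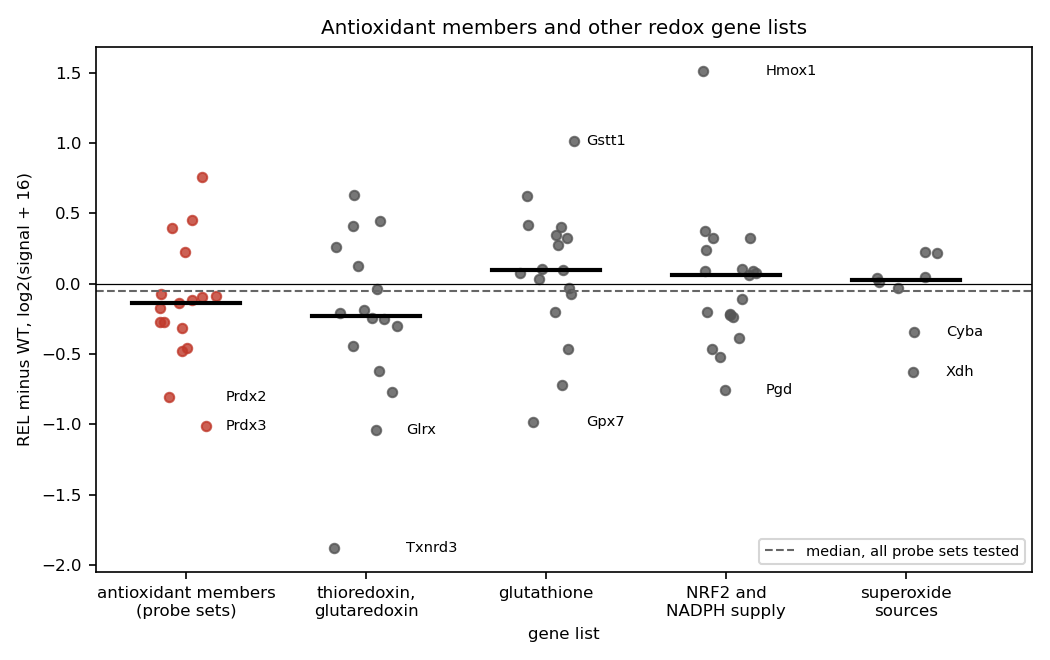
Difference between REL and WT on the log2(signal + 16) scale for the 17 antioxidant probe sets and for the genes of 4 other redox lists (1 probe set per gene), with a bar at each median and a dashed line at the median of all probe sets tested. The medians lie between −0.23 and 0.10, and Hmox1 is the highest point at 1.51.

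For Prdx3, the antioxidant gene with the smallest p, the nearest array profiles were sought among 11315 genes, by the root mean square difference of log2 deviations over the 5 arrays. The nearest was Cenpp, which encodes a centromere protein (0.05 log2 units), with signals of 799 and 574 in REL and of 1885, 1084 and 1300 in WT. It was followed by Herc6 (0.09), Acsf3 (0.10), Pex5 (0.11) and Kbtbd8 (0.13). In all 5 REL replicate 2 was the lowest array and WT replicate 1 the highest, as for Prdx3. The genes were picked for likeness to Prdx3, so a shared order of arrays follows from the choice. With 5 arrays such likeness is a description.

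**Figure D5:**
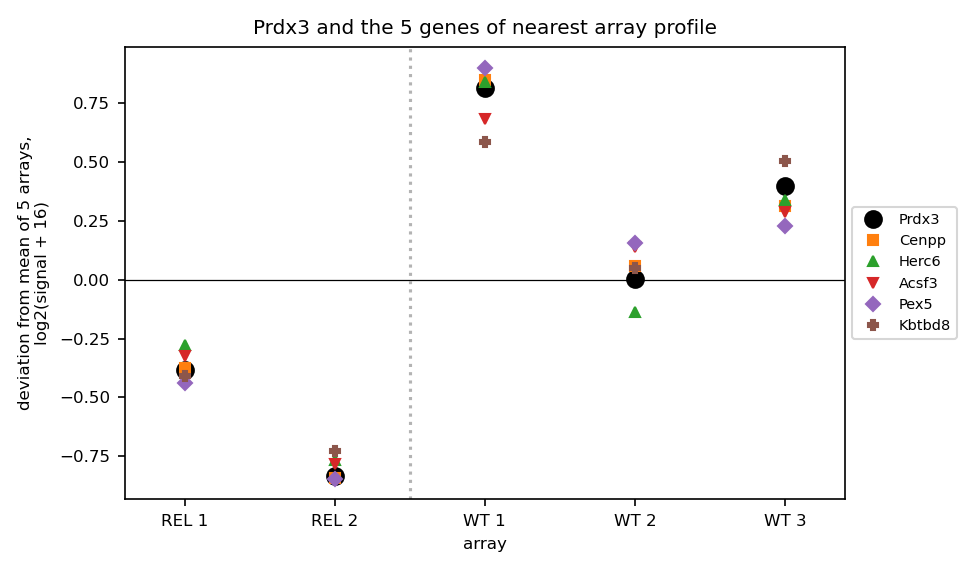
Deviation from the mean of the 5 arrays on the log2(signal + 16) scale for Prdx3 (black circles) and the 5 genes of nearest profile, by REL and WT array. All 6 genes are lowest on REL replicate 2 and highest on WT replicate 1, the 5 having been picked for likeness to Prdx3.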

How the data were processed

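Gene expression was measured on 1 single-colour Affymetrix array per sample, 2 REL and 3 WT. The authors deposited a table of signal intensity values on a linear scale, made with MAS5 per the submitters' processing notes; no version or setting is named there. MAS5 scores each array by itself, and the 2% trimmed mean was 500 on every array. Samples were grouped by their titles. Gene symbols came from the platform annotation: of the 45037 that are not controls, 34945 had 1 symbol, 932 several and 9160 none. Signals were transformed as log2(signal + 16), which understates the change of dim probe sets. The lowest 40% by mean over the 5 arrays were left out, and 27022 were fitted by limma 3.58.1 (R 4.3.3), using lmFit and a trended eBayes with 3 residual and 6.23 prior degrees of freedom, two-sided with Benjamini-Hochberg adjustment. The number of arrays limits the precision. Other redox lists took the probe set of each gene with the highest mean, and the 3 genes of each with the smallest p were named. Slc7a11, the Actb probe sets, the Gapdh and 18S controls and the marker genes given by name were chosen after seeing their values. The fit was tested on simulated data with variances shuffled over probe sets, which does not check its mean-variance trend. The genes, lists and promoters were chosen with earlier results of these data known. Python 3.11.15 with pandas 2.3.3, numpy 2.4.6 and matplotlib 3.10.9 made the tables and plots.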

Additional observations from a re-analysis of the deposited data

How the results depend on the processing

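No antioxidant probe set tested under an alternative was called by limma there (19 were tested without a filter, 15 under the 60% filter, 8 with 1 probe set per gene, 16 without REL replicate 2, and 17 otherwise): 1 or 64 added before log2, a 60% filter or none, quantile normalization, centring on medians, 1 probe set per gene, no mean-variance trend, the replicate block, and each array left out. Prdx3 ran from −1.24 to −0.79 (limma adjusted p 0.223 to 0.896), and the Gpx4 probe sets from 0.35 to 0.58 and 0.55 to 0.94. The replicate number as a block called 11 of all probe sets, in place of 0, with Prdx3 at −1.02; the numbers of the titles are not stated to pair samples, and deviations of same-numbered arrays correlated at −0.00096 and 0.0123. Under the replicate block the second Sod2 probe set turned to 0.021. Leaving out arrays gave ranges of −0.24 to 0.0081 for the brightest Sod1 probe set and −1.30 to 0.34 for the one at 196 and 646 in REL. It gave −0.32 to 0.023 and −0.31 to 0.16 for the second and the next Sod2 probe sets, −1.12 to 0.18 for the dim Txn1 probe set, and −0.24 to −0.06 for the median of the antioxidant probe sets. Without a REL array the lone one is assumed to vary like WT. The causes were not tested. Median centring moved the median of all probe sets from −0.05 to −0.11.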
